A study of Mus musculus with 59 samples.

Results

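Lost regions are stretches of the autosomes where H3K27me3 was called in every WT-Tag hindbrain neurosphere library and in no K27M-Tag hindbrain library. They were found by merging the H3K27me3 islands of the 6 hindbrain lists wherever islands shared 1 bp, and there are 3864 of them among 21066 merged autosomal regions. Of the 8781 regions with an island in all 3 WT-Tag lists they make up 44.0%. A further 3265 regions held an island in all 6 lists and are called kept regions. An island is a run of 200 bp windows with more reads than background, as called by the authors, and a region is called in a library when that library has an island sharing at least 1 bp with it. "Lost" describes these calls alone: the lists give no reads outside islands, so a region without an island can still carry some of the mark.

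The neurospheres were cultures of E15.5 (embryonic) hindbrain or forebrain cells grown under neural precursor conditions. Their genotypes were Nestin-cre; H3f3aLSL-K27M-Tag/+ (3 hindbrain and 3 forebrain H3K27me3 libraries) and Nestin-cre; H3f3aLSL-WT-Tag/+ (3 hindbrain libraries). Both therefore carry a tagged H3.3 allele switched on by Cre under the Nestin promoter, and the hindbrain control differs in having no K27M mutation. The tumours were brainstem tumours of Nestin-creERT2; LSL-PDGFRαV544ins; Trp53flox/flox mice, 6 with H3f3aLSL-K27M-Tag/+ and 5 with H3f3aLSL-WT-Tag/+, so that the WT tumours share the activated PDGFRα and the Trp53 deletion. All 11 tumours had H3K27me3 and H3K27ac lists, and K27M tumours 2 and 6 and WT tumours 7, 9 and 10 had H3K4me3 lists. H3K27me3 lists held between 3208588 and 16323822 reads in islands over all chromosomes. The neurosphere cells were female except the third WT hindbrain culture. Of the tumours, 4 K27M and 1 WT came from males. Tissue identity was not checked against marker genes, because no gene annotation of the files' build, mm9, was used here. Tumours are bulk tissue, in which fewer marked cells and less mark per cell cannot be told apart.

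H3K27me3 is written by the Polycomb repressive complex PRC2, whose catalytic subunit is EZH2, and it covers silent developmental genes in broad domains around CpG-rich recruitment sites. From those sites the complex spreads the mark into the flanking chromatin. Histone H3 with methionine in place of lysine at position 27 hampers PRC2, and cells that express it are known for a low overall level of H3K27me3 with islands that remain at strong Polycomb sites. H3K27ac on the same lysine excludes methylation of that residue and marks active promoters and enhancers. H3K4me3 marks promoters, and where it lies together with H3K27me3 the promoter is called bivalent.

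The values that chose the lost regions describe them and support nothing further. Lost regions were 1.4 to 81.8 kb wide with a median of 10.4 kb and covered 48.2 Mb in all, whereas kept regions had a median of 19 kb and covered 89.5 Mb. In the WT-Tag libraries the lost regions carried a median of 25 reads per kb of island, against 41.9 in kept regions. The median was 28.4 in the 929 regions called in 1 K27M-Tag list and 30.7 in the 723 called in 2. They held 12.6%, 12.3% and 12.6% of the autosomal island reads of the 3 WT-Tag libraries, while kept regions held 72.4%, 72.8% and 67.4%. In the 3 K27M-Tag libraries kept regions held 96.8%, 98.2% and 97.0% of these reads. Islands covered 43.4%, 38.6% and 44.8% of the kept bases in K27M-Tag and 83.2%, 85.2% and 92.1% in WT-Tag libraries. Kept regions were thus kept as calls and covered over less of their length. Just outside the rule were the 929 regions with an island in a single K27M-Tag list. That list's islands summed to a median of 2.6 kb, 52 reads and 22.9% of the region, and in 149 regions they covered under 10%.

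The number of lost regions depended on how many islands each list held. K27M-Tag lists held 6020 to 7614 islands and WT-Tag lists 16008 to 19476, on all autosomes. When every list was reduced to its 6020 islands with most reads, 616 regions counted as lost, because only 511 of the 3864 (13.2%) still had an island in all 3 shortened WT-Tag lists. Of the kept regions, 78.3% still had one. Without the first WT-Tag hindbrain library, whose list was the shortest of the 3, the remaining lists gave 6140 lost regions. Island read totals over autosomes were 4376553 to 5321143 in K27M-Tag and 6199003 to 9072944 in WT-Tag libraries, and the part of this depth in the loss of weak islands was not tested. The islands at the low end of each list (the fifth percentile) had 17.7 to 17.9 reads per kb in K27M-Tag and 18.2 to 19.1 in WT-Tag libraries.

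Lost regions were spread over all 19 autosomes in proportions that varied little. Between 39.8% (chromosome 5) and 49.5% (chromosome 18) of the regions in all 3 WT-Tag lists were lost. Their number per Mb ranged more widely, from 1.07 on chromosome 3 to 2.48 on chromosome 9, with 1.61 over all autosomes, and chromosomes with many lost regions per Mb also had many kept ones (0.907 kept per Mb on chromosome 3 and 1.99 on chromosome 9). In bins of 1 Mb, 1277 of 2414 bins (52.9%) held a lost region, and 980 of those (76.7%) held a kept region too. The 241 bins with most lost regions held 43.3% of them, and the 241 with most kept regions held 41.2% of the kept ones. Across the 2414 bins the numbers of lost and kept regions had a Spearman correlation of 0.57, a description over bins that share the gene and CpG content of their chromosome. The densest bin, chr1:38000001-39000000, held 16 lost and 3 kept regions among 20 in all WT-Tag lists. The next, chr4:45000001-46000000, held 15 lost and 2 kept.

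Neighbouring regions along a chromosome tended to share their class at short range. Among regions in all 3 WT-Tag lists, the region after a lost one was lost in 49.2% of 3856 pairs, and the region after a kept one was lost in 39.7% of 3256 pairs. For gaps under 20 kb these shares were 52.9% and 40.5%, for 20 to 100 kb 52.0% and 39.5%, and for 100 to 500 kb 45.8% and 38.2%. Over 500 kb the order was the other way, with 36.5% after a lost and 40.9% after a kept region. These shares are descriptions of the rule's own calls, and neighbouring islands share the libraries in which they were called.

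**Figure D1:**
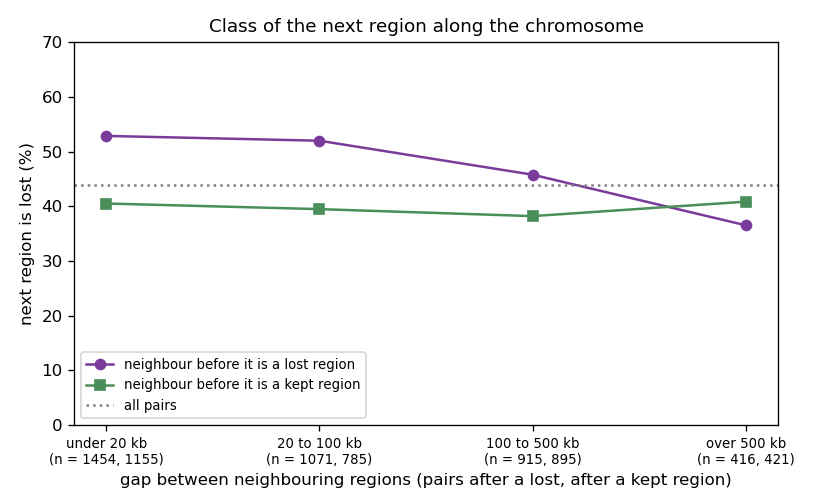
Share of next regions along the chromosome that were lost (y axis, %), by the gap to the region before (x axis, with the number of pairs), after a lost region (circles) or a kept region (squares). The dotted line is the share over all pairs (44.0%). The circles lie above the squares up to 500 kb and below them beyond it.

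The median distance from a lost region to the nearest island of any K27M-Tag hindbrain list was 49.6 kb, with 16.8% within 10 kb and 67.9% within 100 kb. Regions with no K27M-Tag island and an island in only 2 or 1 WT-Tag lists lay at similar distances, with medians of 56.8 and 65.6 kb and 64.4% and 61.2% within 100 kb. From lost regions to the nearest kept region the median was 92.7 kb and to the nearest other lost region 47.8 kb. Kept regions lay a median of 79.8 kb from the next kept region. Only 58 lost regions were more than 1 Mb from a K27M-Tag island. These 58 were narrow (median 6.8 kb), and 53.4% of them overlapped an H3K4me3 peak of some tumour, against 21.0% of the 648 lost regions within 10 kb of a K27M-Tag island and 34.5% of the 1183 at 100 kb to 1 Mb. WT read density did not follow the distance: its median was 25.2 reads per kb within 10 kb and 25.3 over 1 Mb. Nor did forebrain calls, since 14.4% of the regions within 10 kb and 13.8% of those over 1 Mb had a forebrain island in at least 1 library.

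Runs of lost regions, with gaps under 100 kb and no kept region between, numbered 334 with 3 or more members, and 63 had 5 or more. In all, 2258 lost regions (58.4%) had at least 1 such neighbour and 1606 stood alone. Runs were not counted for kept regions. Of lost regions 64.4% lay within 100 kb of another lost region, and of kept regions 53.8% lay within 100 kb of another kept one. Merging hindbrain islands up to 2 kb apart left 2999 lost regions of 3864 and 2988 kept regions of 3265. Runs were not counted again with that merging. The longest runs held 11 regions. At chr4:45434601-45808200 the 11 members covered 288.4 kb of 373.6 kb, and at chr1:94251001-94791000 they covered 194.4 kb of 540 kb. The third run of 11, chr12:83224401-83499000, spanned 274.6 kb, and runs of 10 and 9 lay at chr13:42700201-43029200 and chr8:91992201-92318000. These runs differed in the tumours. Every member of the chromosome 1 run was called in at least 1 tumour, with 6 to 11 of the 11 called per tumour. Of the chromosome 12 run, 0 to 6 members were called per tumour and none in all 11 tumours. K27M tumour 1 had 6 of its islands, whereas K27M tumours 5 and 6 and WT tumours 8 and 11 had none. In the chromosome 8 run WT tumour 10 had islands at all 9 members and K27M tumour 6 and WT tumour 9 at none. In forebrain K27M cells 5 of the 11 chromosome 12 members, 2 of the chromosome 4 members and none of the chromosome 1 members had an island.

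The widest lost region, chr4:45434601-45516400 (81.8 kb), opens the longest run. Its islands held 35.7, 36.8 and 48.4 reads per kb in WT-Tag hindbrain libraries, and it lay 83.2 kb from the nearest K27M-Tag hindbrain island. All 3 forebrain K27M libraries had islands there, over 19.3%, 43.3% and 42.5% of its length. In the tumours 1 of 6 K27M and 3 of 5 WT libraries called it. The second widest, chr4:46263801-46339200 (75.4 kb), lay 3 kb from a K27M-Tag island, had no forebrain island, and was called in all 11 tumours, each with an H3K27ac peak. The next widest were chr5:35780001-35848400 (68.4 kb, all 11 tumours), chr1:38288001-38356200 (68.2 kb, 1 K27M tumour and no WT tumour) and chr8:124552601-124620600 (68.0 kb, 4 K27M and 5 WT tumours). Wide lost regions hence ranged from calls in 1 tumour to calls in all.

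Some lost regions were as densely marked in WT-Tag cells as kept ones. The densest, chr11:88827401-88832600, is 5.2 kb wide and had 103.6, 106.6 and 101.9 WT-Tag reads per kb, with no K27M-Tag island within 192.8 kb, no forebrain island and an island in 1 of 11 tumours. At chr6:119054401-119058200 (3.8 kb) the 3 WT-Tag libraries gave 36.5, 65.8 and 87.7 reads per kb. There the forebrain K27M libraries gave 86.5, 38.4 and 26.7, and 6 K27M and 2 WT tumours had an island. The other 3 by this ranking, chr5:21953201-21962200, chr9:35194601-35196000 and chr4:149182401-149188800, were 9.0, 1.4 and 6.4 kb wide. The lost region farthest from any K27M-Tag island was chr16:70583001-70589000, at 6245 kb, with 31.4, 25.3 and 28.8 WT-Tag reads per kb and a call in 1 WT tumour. The next 4 lay 2953 to 3986 kb away, at chr13:8201401-8207400, chr15:21035801-21042600, chr13:9083601-9091600 and chr11:28751801-28756400. Of the 5, 3 had an H3K4me3 peak in at least 4 of 5 tumours.

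Forebrain K27M neurospheres, which the rule did not use, lacked islands at nearly all lost regions. The 3 libraries had islands at 7.92%, 6.13% and 8.02% of lost regions, at 80.2%, 77.9% and 80.2% of kept regions, and at 18.3%, 17.3% and 17.9% of all merged regions. Of lost bases they covered 2.96%, 3.04% and 3.28%, and of kept bases 36.6%, 38.8% and 37.5%. The values of the 3 libraries for lost and for kept regions lay far apart in both measures. At least 1 forebrain library called 501 lost regions (13.0%) and all 3 called 125 (3.23%). For all merged regions the corresponding shares were 22.7% and 13.6%, and for kept regions 87.3% and 70.9%. Regions between the classes lay between them: 37.0% of those called in 1 and 56.8% of those called in 2 hindbrain K27M-Tag lists had a forebrain island in at least 1 library. No WT forebrain list was used, so these values do not show whether the same regions carry the mark in WT forebrain cells. Forebrain and hindbrain K27M-Tag cultures share experiment numbers in the labels and are not independent of each other in batch.

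**Figure D2:**
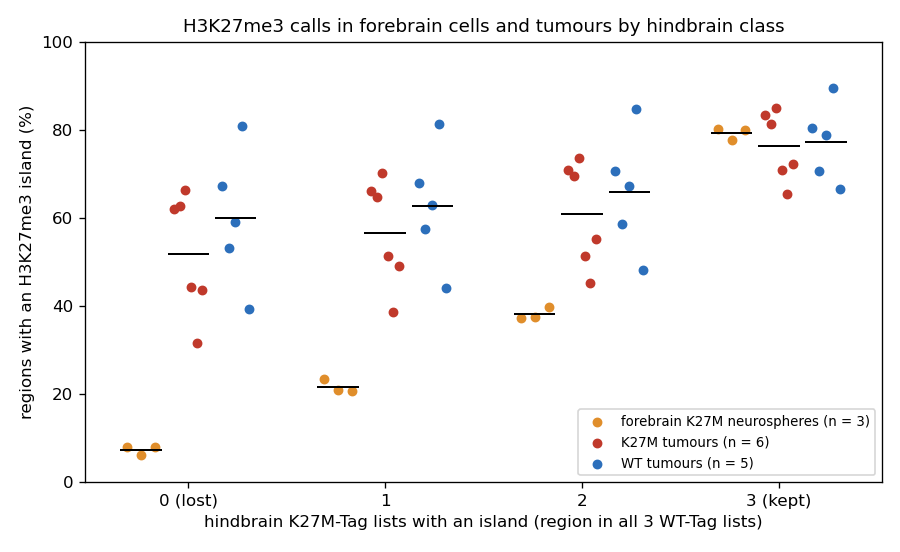
Share of regions with an H3K27me3 island (y axis, %) in forebrain K27M neurospheres and in K27M and WT tumours, for regions in all 3 WT-Tag hindbrain lists grouped by how many K27M-Tag hindbrain lists called them (x axis). Points are libraries and lines are means. Forebrain shares rise from 6.13% to 8.02% at lost regions to 77.9% to 80.2% at kept regions, whereas the tumours lie between 31.6% and 81.1% at lost and between 65.5% and 89.7% at kept regions.

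Forebrain cells also called lost regions less often than kept regions in the same class of WT-Tag read density, a comparison added after the data were seen. Among regions of 25 to 30 WT-Tag reads per kb (1375 lost, 386 kept), the 3 forebrain libraries had islands at 8.65%, 7.20% and 9.24% of lost and at 48.7%, 38.3% and 40.9% of kept regions. At 30 to 35 reads per kb (394 lost, 501 kept) the values were 18.3%, 14.5% and 16.8% against 66.1%, 59.3% and 67.5%. In the class of 35 to 45 reads per kb (147 lost, 868 kept) they were 23.1%, 20.4% and 29.3% against 81.6%, 81.1% and 83.3%. In each class every forebrain library called kept regions more often. Lost regions of a class were narrower than kept ones (medians of 10.0 and 15.7 kb at 25 to 30 reads per kb), and the part of width was not tested in these classes. Lost and kept regions can still differ in density within a class, and the part of this was not tested. Among regions of 20 kb or more, forebrain libraries called a median of 12.7% of 488 lost and 87.3% of 1525 kept regions.

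The 125 lost regions called in all 3 forebrain libraries were touched by strong islands in places. The densest touched chr10:45221001-45234200, with 218.3, 176.6 and 55.0 forebrain K27M reads per kb over the whole length of these islands. WT-Tag hindbrain islands there had 25.5, 27.3 and 30.2, and 4 WT tumours and no K27M tumour called the region. It lay 4.4 kb from a K27M-Tag hindbrain island. At chr10:115016801-115027400 forebrain islands of 112.3, 83.0 and 84.2 reads per kb covered the whole region, and all 11 tumours had an island. The next 3 were chr14:60557601-60579400 with 97.7, 84.3 and 97.1 reads per kb, chr12:107612401-107620800 with 71.7, 78.8 and 79.8, and chr7:144418401-144437200 with 63.4, 65.5 and 61.2. These densities are not scaled for depth, so levels of different libraries are not comparable. Forebrain islands can extend past a lost region, so their reads need not lie on it. Members called in all 3 forebrain libraries were slightly wider (median 12.6 kb) and denser in WT-Tag hindbrain (28.3 reads per kb) than the 3363 members called in none (10.2 kb and 24.7).

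Depending on the tumour, between 31.6% and 81.1% of lost regions carried an H3K27me3 island. The 6 K27M tumours had islands at 62.2%, 62.8%, 66.3%, 44.5%, 31.6% and 43.7% of lost regions, in the order of tumours 1 to 6. The 5 WT tumours, 7 to 11, had islands at 67.2%, 53.3%, 59.1%, 81.1% and 39.3%. The lowest of each genotype, K27M tumour 5 and WT tumour 11, were also the libraries with the fewest autosomal island reads (2346983 and 1878972), and WT tumour 10, the highest, had the most (14400936). The part of depth was not tested. Every tumour exceeded every forebrain K27M library, at lost regions and over all merged regions (27.2% to 69.3% against 17.3% to 18.3%). Tumour lists were also longer, with 10716 to 42642 autosomal islands against 4860 to 5302 in the forebrain lists. The part of list length in this contrast was not tested. At least 1 tumour called 3564 lost regions (92.2%), at least 1 K27M tumour called 3172 (82.1%), and all 6 K27M tumours called 803 (20.8%). All 11 tumours called 589 (15.2%), and 300 (7.76%) had no tumour island. Of all 21066 merged regions 84.1% were called in at least 1 tumour and 71.7% in at least 1 K27M tumour, lower than at lost regions. All 6 K27M tumours called 19.8% of all merged regions and all 11 tumours 15.1%, near the shares of lost regions. The mean share per tumour was 46.7% over all merged regions, which were narrower (median 7 kb), beside 55.6% over lost ones. Each number of tumours from 1 to 10 held 264 to 390 lost regions, whereas 51.4% of kept regions were called in all 11.

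**Figure D3:**
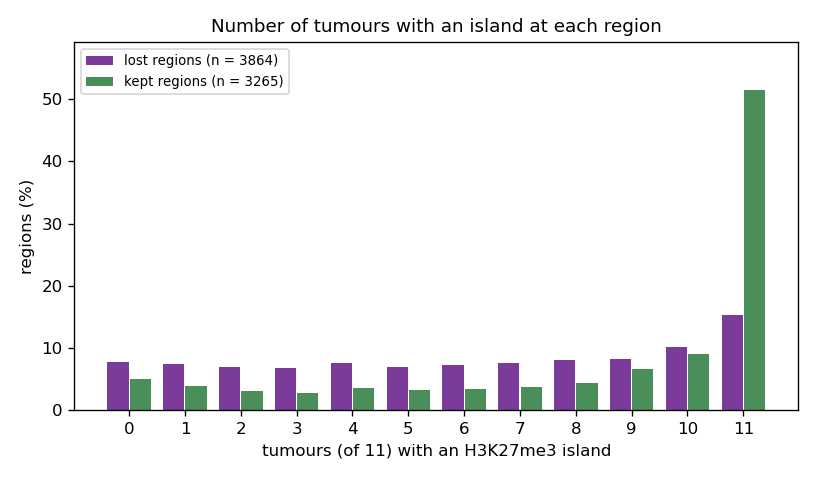
Share of lost and of kept hindbrain regions (y axis, %) by the number of tumours, out of 11, with an H3K27me3 island (x axis). Lost regions lie between 6.83% and 10.1% at every number from 0 to 10 and reach 15.2% at 11, where kept regions reach 51.4%.

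Within each tumour lost regions were marked less often than kept ones. Islands were present at 55.6% ± 14.6 of lost and 76.9% ± 7.99 of kept regions (SD, n = 11 tumours), lower at lost regions in 11 of 11 tumours by 21.3 points on average (exact two-sided sign-flip permutation test, p = 0.000977, adjusted over 6 comparisons 0.00146). They covered 37.5% ± 14.8 of lost and 52.6% ± 12.7 of kept bases (SD, n = 11), again lower in 11 of 11 tumours (exact permutation p = 0.000977). This p is the smallest that 11 tumours allow.

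The gap in tumour calls depended on the WT-Tag hindbrain density of the regions compared, in classes added after the data were seen. Under 25 reads per kb, the class with 49.8% of lost regions, the median tumour called 54.6% of 1924 lost and 34.1% of 85 kept regions. At 45 or more it called 62.5% of 24 lost and 90.04% of 1425 kept regions. Neither of these classes was tested, and the 3 between them were. At 25 to 30 WT-Tag reads per kb, tumours had islands at 59.9% of lost and 58.4% of kept regions, a mean difference of 1.51 points ± 3.30 (SD, n = 11), higher at lost regions in 7 of 11 tumours (exact permutation p = 0.165, adjusted over 18 tests 0.198). Islands covered 41.8% of lost and 36.6% of kept bases in that class, more at lost regions in 11 of 11 tumours (exact permutation p = 0.000977, adjusted 0.0022). At 30 to 35 reads per kb lost regions were called less often, 60.5% against 65.7%, in 11 of 11 tumours (exact permutation p = 0.000977, adjusted 0.0022), while the covered share was 42.2% against 39.7%. At 35 to 45 reads per kb both shares were lower at lost regions, 62.4% against 75.4% of regions and 41.5% against 45.5% of bases. A call over 1 bp favours wide regions, and the kept regions of a class were wider. In the same classes the forebrain K27M shares of lost regions stayed far below those of kept regions. Tumours and forebrain cells differ in tissue, age, culture, genotype and number of islands in the list, which cannot be told apart here.

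**Figure D4:**
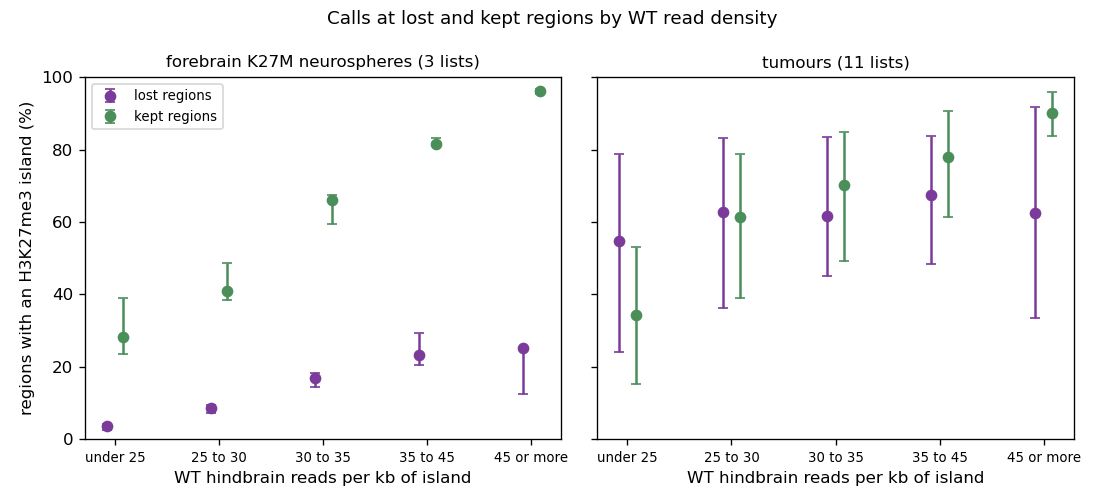
Share of lost and kept regions with an H3K27me3 island (y axis, %) by WT-Tag hindbrain reads per kb of island (x axis), in 3 forebrain K27M lists (left) and 11 tumour lists (right). Points are medians over lists and bars run from the lowest to the highest list. At 25 to 30 reads per kb the forebrain medians are 8.65% and 40.9%, and the tumour medians 62.8% and 61.4%.

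K27M and WT tumours did not differ detectably at lost regions as a whole. The shares of lost regions with an island averaged 51.8% ± 13.9 over the K27M tumours (SD, n = 6) and 60% ± 15.6 over the WT tumours (SD, n = 5), a difference of -8.17 points (exact two-sided permutation test, p = 0.374, adjusted over 9 tests 0.627). Islands covered 34.0% ± 12 of lost bases in K27M (SD, n = 6) and 41.7% ± 18.0 in WT tumours (SD, n = 5; exact permutation p = 0.418). Relative to kept regions of the same tumour, the log2 ratio of covered shares averaged -0.69 ± 0.30 over K27M tumours (SD, n = 6) against -0.42 ± 0.28 over WT tumours (SD, n = 5; exact permutation p = 0.167, adjusted 0.6). The groups overlapped in all 3 measures. Without WT tumour 11, whose ratio of -0.90 was far from the other WT tumours, the difference in the log2 ratio was -0.39 with an unadjusted exact permutation p of 0.0286. By sex, female K27M tumours had islands at 31.6% and 43.7% of lost regions and the 4 female WT tumours at 39.3% to 81.1%. The 4 male K27M tumours had 44.5% to 66.3%, around the 59.1% of the only male WT tumour.

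Single lost regions whose calls separated the genotypes were few. Of 1136 lost regions whose number of tumour calls could give an unadjusted p under 0.05 in Fisher's exact test, 54 did, 9 with more calls in K27M and 45 with more in WT tumours, and none passed adjustment over all regions tested (Benjamini-Hochberg, smallest adjusted p 0.238). This is 4.75% of the lost regions tested, beside 6.37% of all 5195 merged regions tested. Over all merged regions tested, 331 had an unadjusted Fisher p under 0.05. Of these, 109 had more calls in K27M and 222 more in WT tumours, and of kept regions 19 and 14. At lost regions, leaving out single tumours gave 9 (without K27M tumour 1) to 37 (without WT tumour 10) with more calls in K27M tumours. With more calls in WT tumours there were 49 (without K27M tumour 6) to 138 (without WT tumour 11), and none passed adjustment. The percentage called after adjustment was 0 over all regions. Full separation by genotype gives the smallest p of 6 against 5 tumours, and a few such regions cannot pass adjustment over 5195 tests. The adjusted result therefore cannot decide whether single regions differed. One lost region had an island in all 6 K27M tumours and in no WT tumour, chr16:35578401-35591200 (12.8 kb). The islands touching it in K27M tumours 1 to 6 had 37.0, 35.3, 35.7, 32.1, 22.5 and 53.6 reads per kb. Islands in all 6 K27M tumours and in no WT tumour were present at 18 of all 21066 regions, or 0.0854%. The opposite pattern was present at 2 lost regions and at 0.109% of all regions. These were chr5:48989201-48994200, with 21.8, 30.0, 34.8, 36.4 and 26.2 reads per kb of island in WT tumours 7 to 11, and chr11:68335001-68348000, with 24.3, 24, 28.0, 46.0 and 17.8.

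Island reads could be compared between tumours where all of them had an island. Tumour islands merged into 3027 autosomal regions called in all 11 tumours, of which 814 overlapped a lost region, 538 of these without touching a kept region. By edgeR's quasi-likelihood test (adjusted p under 0.05), 7.43% of all 3027 regions were higher and 5.35% lower in K27M tumours. Among the 814 over lost regions 37 (4.55%) were higher and 66 (8.11%) lower. Among the 538 that touched no kept region 9 (1.67%) were higher and 51 (9.48%) lower, whereas of the 1348 over kept and no lost regions 150 were higher and 34 lower. The median log2 fold was -0.33 over the 538, -0.22 over the 814 and 0.07 over the 1348, beside -0.10 over all 3027. Reads are set against the total in these common regions, so the folds describe redistribution among them. Each tumour's reads were counted only inside its own islands, so the bases counted differed between tumours. A tested region only had to share 1 bp with a lost region, so its reads need not lie on the lost one. Without composition factors the median of all regions was -0.30 and the calls over lost regions were 24 higher and 128 lower, and with sex as a covariate 23 and 48. Leaving out single tumours gave 20 (without WT tumour 7) to 46 (without WT tumour 11) higher and 39 (without K27M tumour 6) to 72 (without WT tumour 11) lower calls over lost regions, and lower calls outnumbered higher ones each time. Among the 1402 regions over lost ones that were called in at least 9 tumours, the order turned, with 21 higher and 15 lower, beside 144 and 30 of all 5741 such regions. Read relative to the median of all regions, the median of the 538 lay below it in both scalings (-0.54 without composition factors).

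The 5 domains over lost regions with the lowest folds, K27M over WT, touched no kept region. They were 20.8 to 71.6 kb wide and held 1 or 2 lost regions each, so their reads need not lie on these. At chr11:55407801-55461200 (53.4 kb) the K27M tumours 1 to 6 gave 86.9, 66.9, 58.5, 117.6, 49.6 and 89.8 CPM (island reads scaled to the library's effective total in the common regions) and the WT tumours 7 to 11 gave 348.6, 437.6, 416.6, 271.6 and 440.4. The groups did not overlap, and the log2 fold was -2.29 ± 0.27 (SE, edgeR adjusted p = 0.000265). At chr4:34671601-34692400 (20.8 kb) the K27M tumours gave 15.3 to 29.9 and the WT tumours 24 to 158.2 CPM, with WT tumour 11 alone within the K27M range (log2 fold -2.26 ± 0.39, edgeR adjusted p = 0.0022). The other 3 were chr3:83384601-83456200 with a log2 fold of -2.36, chr5:133751801-133798400 with -2.09 and chr15:67000401-67044000 with -2.07. In each of them the WT tumours spread widely, from 81.0 to 738.3 CPM in the first, and the groups overlapped. All 3 lost the call when regions in at least 9 tumours were tested. The chromosome 15 domain lost it with sex as a covariate (log2 fold -1.61, edgeR adjusted p = 0.0972). The chromosome 5 domain lost it without any of 5 single tumours, namely K27M tumours 2, 5 and 6 and WT tumours 9 and 11. Some fits held no tested region over a domain. These were chromosome 5 without WT tumour 7, chromosome 3 without WT tumour 8 and chromosome 15 without WT tumour 8 or 10.

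Of the 5 domains with the largest gain in K27M tumours, 4 also contained a kept region, so that their reads need not lie on the lost one. The largest fold was at chr4:99220601-99383400 (162.8 kb), with 909.5 to 4378 CPM in K27M and 105.9 to 581.5 in WT tumours (log2 fold 2.49 ± 0.48 SE, edgeR adjusted p = 0.00493). At chr2:74449401-74664000 (214.6 kb) the K27M tumours 1 to 6 gave 11234, 8454, 12712, 13179, 8400 and 14076 CPM and the WT tumours 7 to 11 gave 2778, 3751, 4104, 3146 and 3104, which did not overlap (log2 fold 1.75 ± 0.18 SE, edgeR adjusted p = 0.000162). Domains at chr8:59768401-59869600 and chr2:147834201-147930800 had log2 folds of 1.52 and 1.51, each without overlap of the groups. The fifth, chr9:42727001-42770400 (43.4 kb), touched a lost and no kept region. Its K27M tumours gave 125.0 to 286.4 and its WT tumours 20.3 to 149.2 CPM (log2 fold 1.65 ± 0.42 SE, edgeR adjusted p = 0.0197), a call lost with sex as a covariate (adjusted p = 0.0604) and when regions in at least 9 tumours were tested (adjusted p = 0.0748).

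Among lost regions called in all 11 tumours, 5 were ranked first by reads per kb of the tumour H3K27me3 islands that touched them. These were chr8:98012801-98035200, chr9:69645601-69653600, chr14:52357001-52365000, chr2:77525601-77534000 and chr2:71516801-71546600. Such islands can extend past the lost region, so their reads need not lie on it. At the first (22.4 kb) the K27M tumours 1 to 6 had 101.4, 87.4, 161.0, 118.5, 44.8 and 282.5 and the WT tumours 7 to 11 had 57.2, 32.4, 64.2, 89.4 and 21.1 reads per kb of island, not scaled for depth. Its islands covered 62.5% of it in WT tumour 11 and at least 96.4% in every other tumour. Forebrain K27M libraries had no island there. Of the 5 regions, 1 had an island in all 3 forebrain libraries and 1 in a single one.

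H3K27ac, the mark of active elements, was found at a minority of lost regions and less often than at kept regions. The 6 K27M tumours had a peak at 16.5%, 12.8%, 12.7%, 9.83%, 9.91% and 15.0% of lost regions and the 5 WT tumours at 14.5%, 11.3%, 10.1%, 16.6% and 12.1%. The means of 12.8% ± 2.68 (SD, n = 6) and 12.9% ± 2.62 (SD, n = 5) did not differ detectably (exact permutation p = 0.929). Per Mb the means were 15.4 and 16.1 peaks (exact permutation p = 0.747). At kept regions the shares were higher, 38.5% ± 5.87 against 12.9% ± 2.52 at lost ones over all tumours (SD, n = 11), and peaks per Mb were 31.4 and 15.7, each lower at lost regions in 11 of 11 tumours (exact sign-flip permutation p = 0.000977). All merged regions had 17.6 to 31.0 peaks per Mb and a peak at 12.1% to 19.3% of regions over the 11 tumours. In classes of WT-Tag density, chosen after the data were seen, the share of regions with a peak was lower at lost regions in 11 of 11 tumours in each of the 3 classes tested, at 15.2% against 32.0%, 20.4% against 38.1% and 22.8% against 41.8% (exact permutation p = 0.000977 each). Per Mb it was lower in 11 of 11 tumours, with a mean difference of -10.1 peaks at 25 to 30 and -5.55 at 30 to 35 reads per kb. At 35 to 45 reads per kb lost and kept regions had 33.6 and 35.6 peaks per Mb, lower at lost regions in 6 of 11 tumours (exact permutation p = 0.326).

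H3K4me3 peaks lay at 24% and 22.5% of lost regions in K27M tumours 2 and 6 and at 22.3%, 18.3% and 21.5% in WT tumours 7, 9 and 10. Over all merged regions the shares in the same 5 tumours were 25.1%, 24.1%, 24.4%, 21.2% and 23.7%, slightly above those of lost regions in each. All merged regions were narrower, and per Mb the gap was wider. Lost regions had 17.0 to 23.0 peaks per Mb and all merged regions 26.9 to 33.5, lower at lost regions in each tumour. K27M and WT tumours did not overlap in the share of lost regions with a peak (exact permutation p = 0.2), and 2 against 3 tumours cannot give a p below 0.1. Relative to kept regions, the log2 ratio of peaks per Mb was -0.98 in K27M and -1.12 in WT tumours, again without overlap, at that smallest p of 0.1 (exact permutation, adjusted over 9 tests 0.6). Kept regions had a peak in 66.1% ± 2.08 and lost ones in 21.7% ± 2.12 (SD, n = 5 tumours), lower at lost regions in 5 of 5 (exact permutation p = 0.0625, the smallest that 5 tumours allow). Within classes of WT-Tag density the gap was smaller. The shares were 26.9% against 42.0% at 25 to 30, 33.4% against 53.4% at 30 to 35 and 38% against 65.9% at 35 to 45 reads per kb, lower in 5 of 5 tumours in each class. Per Mb, lost and kept regions had 32.6 and 33.3 peaks at 30 to 35 reads per kb and 38.5 and 40.6 at 35 to 45, lower at lost regions in 3 of 5 tumours in both.

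Lost regions with H3K4me3, the promoter mark, carried H3K27ac and tumour H3K27me3 more often than those without. All 5 tumours had H3K4me3 at 616 (15.9%), 1 to 4 tumours at 466 (12.1%) and none at 2782 (72.0%). Of all merged regions 19.2% had H3K4me3 in all 5 tumours and 71.3% in none, close to the shares of lost regions. All merged regions were narrower (median 7 kb), and per Mb they had more H3K4me3 peaks than lost regions. Among lost regions, the 616 were slightly narrower (median 9.4 kb). They lay farther from K27M-Tag hindbrain islands (median 83.3 kb, against 44 kb for lost regions with no H3K4me3). Of them, 78.2% had H3K27ac in some tumour, against 44.2% and 16.0% in the other classes. Tumour H3K27me3 followed the same order, and tumours had islands at a median of 74.5% of the 616, at 67.0% of the 466 and at 54.4% of the 2782, and forebrain K27M cells in at least 1 library at 20.0%, 18.5% and 10.5%. Only 9 of the 616 had no tumour island. Peaks of H3K27ac in all 11 tumours were found at 138 lost regions (3.57%), beside 5.36% of all merged and 16.3% of kept regions. By -log10 q of the authors' peak caller, averaged over the 11 lists without scaling, the strongest of these 138 was chr3:142193401-142204000. It had a mean of 119.3 (30.1 to 309.8), H3K4me3 in all 5 tumours and no H3K27me3 island in any of the 11. The next, chr2:165981201-165990400, had a mean of 116.7 and islands in 3 K27M and 1 WT tumours. Next came chr10:79305201-79315400, chr15:74782401-74787000 and chr17:34536001-34561800. Of these only the last was called in most tumours, 6 K27M and 4 WT.

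Lost regions that forebrain K27M cells called were more marked in the tumours too, in a comparison added after the data were seen. Tumours had islands at 66.1% ± 14.2 of the 125 members called in all 3 forebrain libraries and at 54.3% ± 14.9 of the 3363 called in none (SD, n = 11), higher in 11 of 11 tumours (exact sign-flip permutation p = 0.000977, adjusted over 6 tests 0.00146). H3K27ac was found at 27.5% ± 3.72 and 11.6% ± 2.42 (SD, n = 11), also higher in 11 of 11 (exact permutation p = 0.000977). H3K4me3 lay at 38.6% ± 2.91 and 20.0% ± 2.07 (SD, n = 5), higher in 5 of 5 (exact permutation p = 0.0625). Limiting both sets to 5 to 20 kb, or to 25 to 35 WT-Tag reads per kb, changed none of these directions.

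Whether H3K27ac and H3K27me3 shared lost regions within a tumour differed between genotypes. In WT tumours 7 to 11, lost regions with an H3K27me3 island had 14.5, 6.98, 8.78, 18.5 and 12.6 H3K27ac peaks per Mb, and those without had 31.6, 19.7, 18.4, 28.0 and 19.0. In K27M tumours 1 to 6, regions with an island had 20.3, 13.6, 16.2, 10.2, 11.4 and 17.3 and those without had 21.6, 17.5, 12.6, 11.4, 12.7 and 19.4. All 5 WT tumours and 5 of 6 K27M tumours had fewer peaks per Mb with an island, and the WT gaps were larger. Counted as the share of regions with a peak, the K27M tumours went the other way: in all 6 it was higher with an island, from 12.9% against 12.6% in tumour 2 to 14.7% against 8.76% in tumour 3, and in all 5 WT tumours it was lower. Regions with an island were wider in every tumour (medians of 10.8 to 11.8 kb against 9 to 10 kb). Over the 11 tumours the log2 ratio, with over without an island, was -0.49 ± 0.55 (SD, n = 11; exact sign-flip permutation p = 0.0117, adjusted over 2 tests 0.0234). Limited to regions of 5 to 20 kb it was -0.31 (exact permutation p = 0.123). By genotype, a comparison added after the data were seen, the ratio averaged -0.10 ± 0.24 over K27M tumours (SD, n = 6) against -0.97 ± 0.39 over WT tumours (SD, n = 5). The groups did not overlap, and the exact two-sided permutation test gave p = 0.00216, the smallest that 6 against 5 tumours allow, and 0.0133 with genotype permuted within sex (adjusted over 6 tests 0.00433 for the former). A second measure, the log2 ratio of the share of H3K27ac bases under islands to the share of all lost bases under them, was 0.14 to 0.73 in the 6 K27M tumours and -1.73 to 0.32 in the 5 WT tumours. Here WT tumour 11, at 0.32, lay within the K27M range (exact permutation p = 0.00649, adjusted over 6 tests 0.00974). For peaks per Mb, at kept regions the same difference was 0.68 and over all merged regions 0.79, each at p = 0.00216 (exact permutation), beside 0.88 at lost regions, so it was not confined to lost ones. H3K4me3 went the other way: with an island lost regions had 23.7 and without one 15.1 peaks per Mb, higher with an island in 5 of 5 tumours (log2 ratio 0.64, exact permutation p = 0.0625).

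**Figure D5:**
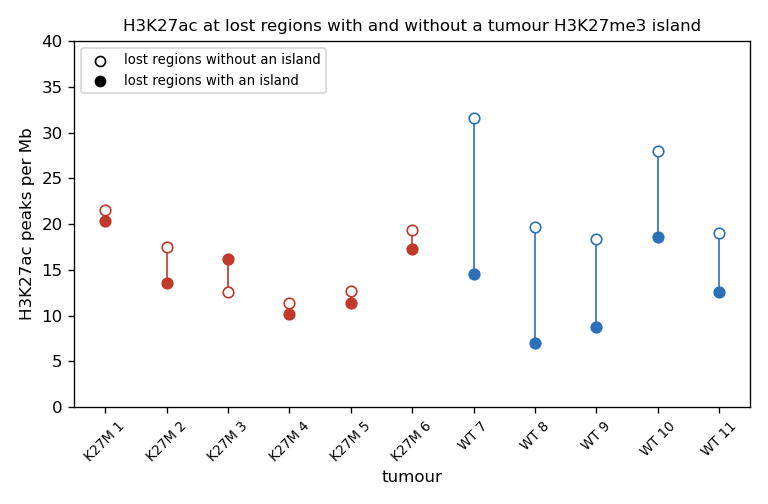
H3K27ac peaks per Mb of lost regions (y axis) in each tumour (x axis; red K27M, blue WT), for lost regions with (filled) and without (open) an H3K27me3 island of the same tumour. The 5 WT tumours show wider gaps between open and filled points than the 6 K27M tumours, and K27M tumour 3 alone has the filled point on top.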

How the data were processed

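H3K27me3, H3K27ac and H3K4me3 ChIP-seq lists were used as deposited; 23 input samples were not analysed here. Per the labels' protocols a Drosophila S2 spike-in went into the ChIP, and it was not used for scaling here, so no value measures an absolute amount. Build mm9, SICER 1.1, MACS2, bedtools 2.25.0, BWA 0.7.12, SAMtools, Picard and R 2.14.0 stand in the submitters' processing notes, with no role. The deposited H3K27me3 lists give the count of reads in each island. Reads per kb at named regions are those of the whole islands that touch a region. Forebrain and tumour islands can extend past it. The deposited narrowPeak lists give a -log10 q-value per peak, the authors' own, used to rank or filter peaks within a list. Each list is 1 sample.

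Positions are 1-based mm9; genes, exons and UTRs are not stated. Members and lists were chosen with earlier results of these data known. Named regions follow ranking rules: 5 each by width, WT-Tag density, distance from K27M-Tag islands, run length, forebrain and tumour density, H3K27ac -log10 q and fold, and those separated by genotype. The labels do not say whether samples come from separate animals, so a p-value speaks only of the spread among the libraries at hand, which may be technical. Means per tumour were compared by exact permutation tests, and lost with kept regions by exact sign-flip tests over tumours. Island reads were summed per region and tested with edgeR 4.0.16 (TMM) in R 4.3.3, with DESeq2 1.42.0 as an alternative. SEs of edgeR folds came from the size of the fold and its F statistic. Other steps used Python 3.11.15, pandas 2.3.3, SciPy 1.17.1 and matplotlib 3.10.9. The functions were tested on simulated data.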

Additional observations from a re-analysis of the deposited data

Results flagged for a closer look

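WT tumour 11, the tumour library with the fewest island reads, lay far from the other 4 WT tumours in a pair of measures. Its log2 ratio of covered shares, lost over kept, was -0.899, and its log2 ratio of H3K27ac peaks per Mb, lost over kept, was -1.25. In both the gap to the nearest WT tumour was over 0.71 of the range of the 5 WT tumours (0.722 and 0.836). Among 14 groups examined in this way, chance gives such a gap in about 1 of 20. The log2 ratio of H3K27ac at lost regions with over without an H3K27me3 island was higher in K27M than in WT tumours by 0.878, a difference that was itself tested (exact permutation p = 0.00216, the smallest possible) and that lay between 0.75 and 0.97 when each tumour was left out in turn. In female tumours the means were -0.16 in 2 K27M and -0.95 in 4 WT tumours, with no test within females. The cause was not tested.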

How the results depend on the processing

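No paired analysis was possible because the hindbrain groups that share experiment numbers chose the regions and have no test, and the tumours carry numbers of their own. With hindbrain lists of equal length 616 regions were lost. Without single hindbrain libraries, which loosens the rule, 3966 (without K27M 2) to 6140 (without WT 1) were lost. Mean forebrain calls at lost regions, 7.36%, became 6.97% when a forebrain island had to cover 10% of a region. They became 8.83% when that minimum was used to define the lost regions and 17.7% with hindbrain lists of equal length. Within classes of WT-Tag density, lost minus kept turned to 1.51 points (regions) and 5.26 points (bases) at 25 to 30 reads per kb and 2.46 points (bases) at 30 to 35, and H3K27ac at 35 to 45 differed by -1.98 peaks per Mb. The log2 ratio of H3K27ac with over without an island was -0.31 at 5 to 20 kb.

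Leaving out single tumours, K27M minus WT ranged from -0.39 to -0.16 for the log2 covered ratio. For H3K27ac it ranged from -0.89 to 0.79 points, from -1.78 to 0.29 peaks per Mb and from -0.0256 to 0.0656 for the log2 ratio, changing sign in each. Regions with an unadjusted Fisher p under 0.05 numbered 9 to 37 (more in K27M) and 49 to 138 (more in WT, most without WT tumour 11), and 30 more in K27M with tumour lists of equal length.

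For island reads over lost regions, higher calls were 24 without composition factors, 23 with sex as a covariate and 21 for regions in at least 9 tumours. Lower calls were 128 without these factors, 107 by DESeq2 and 15 for at least 9 tumours. Where no kept region was touched, higher calls were 5, 1 and 0 under the same 3 changes, and lower calls were 100 without composition factors, 86 by DESeq2 and 9 for at least 9 tumours. Leaving out single tumours gave 20 to 46 higher and 39 to 72 lower calls over lost regions, and 3 to 10 and 30 to 56 where no kept region was touched. The lowest numbers were without K27M tumour 6, except 20 without WT tumour 7. Lower calls numbered 42 and 33 if K27M tumour 4 was left out, and 42 and 32 for WT tumour 7. Higher calls where no kept region was touched fell from 9 to 5 or fewer without any of K27M tumours 1, 3, 4 and 6 and WT tumours 7, 8 and 9. The cause was not tested. Alternatives chosen after seeing the data are those by density, by width and by the ratio between genotypes. WT tumour 11 and K27M tumour 5 had the fewest island reads, and the part of depth was not tested.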
